A study of Homo sapiens with 12 samples.

Results

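The genes described here are 32 genes of the NF-kB pathway and of its feedback control, among 59276 gene symbols measured by RNA sequencing in JJN3 cells, an established human multiple myeloma line. They were taken by symbol from the deposited gene table, and all 32 symbols were found in it. By role they are 5 DNA-binding subunits, 5 IkB proteins, 6 genes of the IKK complex and its upstream kinases, 5 TRAF adaptors, 4 ubiquitin-editing feedback regulators, 4 receptor-proximal adaptors and kinases, and 3 effector target genes. The 12 samples fall into 4 groups of 3. JJN3 cells received DMSO, the solvent, or 10 µM of MS023, an inhibitor of type I protein arginine methyltransferases, for 3 days. The other two groups were JJN3 cells that express Cas9 and carried an inducible guide, either the control guide isgCtrl or iPRMT1_1 against PRMT1 (PRMT1-KO below), and both were induced with Dox (doxycycline) for 3 days. PRMT1 is the main enzyme that places asymmetric dimethylarginine on proteins. The study used these samples to ask how loss or inhibition of PRMT1 changes the transcriptome of myeloma cells.

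NF-kB is a family of dimeric transcription factors that IkB proteins hold in the cytoplasm. In the canonical branch, receptor adaptors and TRAF proteins activate the IKK complex, which marks IkB proteins for degradation and frees RELA with the p50 product of NFKB1. In the non-canonical branch, the kinase NIK, encoded by MAP3K14, acts through IKK-alpha, encoded by CHUK, to release RELB with the p52 product of NFKB2. TRAF2 and TRAF3 keep NIK low in resting cells. Many of the regulators, such as NFKBIA, TNFAIP3, TRAF1 and TNIP1, are themselves NF-kB targets, which closes feedback loops. Mutations in this pathway are common in myeloma.

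PRMT1 mRNA, the target of the guide, was 859.8 ± 9.15 TPM (SD, n = 3; TPM is a transcript abundance scaled to gene length and to the sum of the sample) in isgCtrl and 304.0 ± 4.34 TPM in PRMT1-KO. It was 653 ± 18.3 TPM in DMSO and 673 ± 23.6 TPM with MS023. The knockout rests on a single guide, and mRNA is no measure of how many cells were edited. Of 7 plasma cell markers, 7 had a mean log2(TPM+1) above 1 in DMSO and in MS023, 6 in isgCtrl and 5 in PRMT1-KO, where CD38 and SLAMF7 were below it. Their summed level was 613 to 649 TPM in DMSO, 977 to 1020 TPM in MS023, 651 to 666 TPM in isgCtrl and 626 to 629 TPM in PRMT1-KO. Single markers moved both ways under these sums. Their mean log2(TPM+1) differed from DMSO by -0.88 to 2.37 in MS023 and by -2.92 to 0.72 in isgCtrl. The 5 T cell markers added up to at most 1.25 TPM in any sample, the 5 myeloid markers to at most 3.09 TPM and the 5 fibroblast markers to at most 14.3 TPM. The fibroblast sum was 0.951 to 3.11 TPM in DMSO, 4.49 to 5.02 TPM in MS023, 1.32 to 14.3 TPM in isgCtrl and 0.324 to 2.02 TPM in PRMT1-KO, and its part in the results below was not tested. Between 20988 and 22241 genes were above 0 in a sample, and Pearson's r between replicates across genes was 0.992 to 0.995. Since the TPM of all samples have one common sum, they do not show the read depth behind a value. In such bulk RNA, a change in the mRNA per cell and a change in the share of cells that express a gene cannot be told apart.

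Of the 32 genes, 29 had a mean log2(TPM+1) above 1 in all 4 groups. IRAK1, a kinase below the interleukin-1 and Toll-like receptors, was the most abundant, at a mean of 226 TPM in DMSO, 225 TPM in MS023, 267 TPM in isgCtrl and 259 TPM in PRMT1-KO. NFKB2 and SOD2 followed in DMSO, at 90.8 and 87.5 TPM. Among the DNA-binding subunits in DMSO, NFKB2 stood above RELA at 42.0 TPM, NFKB1 at 25.4 TPM and RELB at 24.5 TPM, and the 3 DMSO samples of the last pair overlapped. REL, which encodes c-Rel, was 0.42 TPM in DMSO. REL, the adaptor gene TRAF5 and TNFAIP2, a TNF-induced gene, had group means of log2(TPM+1) below 1 in all 4 groups and were not tested. Their highest mean in any group was 0.55 TPM for REL, 0.34 TPM for TRAF5 and 0.45 TPM for TNFAIP2.

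**Figure D1:**
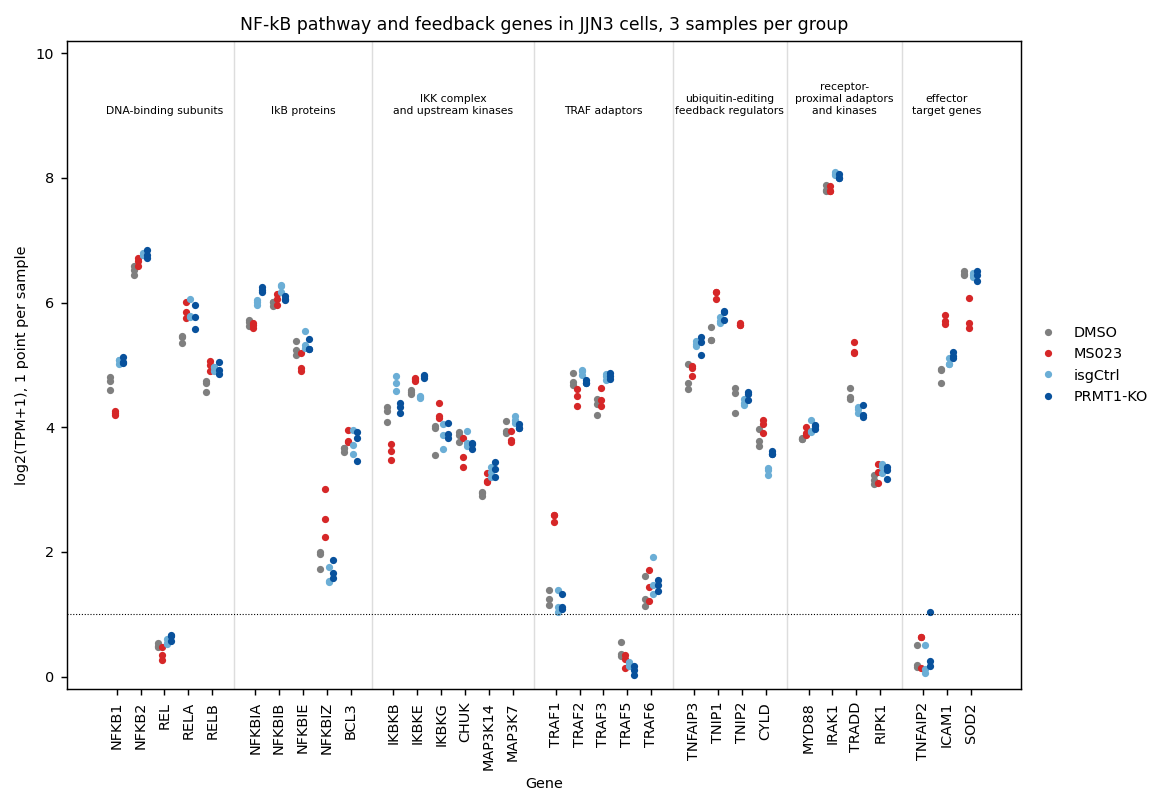
Levels of the 32 NF-kB pathway and feedback genes, as log2(TPM+1), with 1 point for each of the 12 samples, genes ordered by role on the horizontal axis and groups by colour. The dotted line marks 1, the limit for testing; REL, TRAF5 and TNFAIP2 lie below it, apart from 1 PRMT1-KO sample of TNFAIP2 at 1.03, and IRAK1 lies highest.

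Promoters of the 32 genes were searched for the kappaB consensus, which is 3 guanines, a purine, any base, A or T, a pair of pyrimidines and a pair of cytosines. Both strands were read, in windows from 250 bases before to 50 bases after each RefSeq start site on GRCh38.p14. Of 28 genes with a window, 11 (39.3%) held at least 1 match, against 7.09% of the 27305 gene symbols of the table. Some genes have more than 1 window, and a match in any of them counts, while 5.91% of all 35116 windows held a match. The genes were listed for this pathway and include known NF-kB targets, so their share is a description and no test. A stricter form, in which the purine is A and both pyrimidines are T, was found in 9 of the 28 (32.1%) and in 1.07% of all symbols. A match describes the letters and is neither a site nor evidence of binding. IKBKB, NFKBIE, RELB and TRADD had no window in the table. The windows below belong to the 3 genes that passed the MS023 test described further on and hold a match. They run over the 250 bases up to the start site, 5′ to 3′ on the gene's strand, with the match in capitals. NFKBIZ, an atypical nuclear IkB protein, has 2 start sites on the plus strand, with windows at chr3:101827740-101827989 and chr3:101849264-101849513. NFKB1, the p105/p50 subunit, has 2 windows on the plus strand, of which that at chr4:102501109-102501358 holds the match and that at chr4:102501684-102501933 holds none. TNIP1, which encodes the TNFAIP3 partner ABIN-1, has 2 windows on the minus strand, with the match at chr5:151081035-151081284 and none at chr5:151065132-151065381. The windows without a match are not printed.
NFKBIZ, start 1: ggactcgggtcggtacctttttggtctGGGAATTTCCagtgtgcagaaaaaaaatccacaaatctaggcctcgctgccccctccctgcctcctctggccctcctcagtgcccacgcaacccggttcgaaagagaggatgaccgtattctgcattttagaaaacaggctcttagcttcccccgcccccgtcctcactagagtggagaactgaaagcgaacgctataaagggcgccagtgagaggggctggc
NFKBIZ, start 2: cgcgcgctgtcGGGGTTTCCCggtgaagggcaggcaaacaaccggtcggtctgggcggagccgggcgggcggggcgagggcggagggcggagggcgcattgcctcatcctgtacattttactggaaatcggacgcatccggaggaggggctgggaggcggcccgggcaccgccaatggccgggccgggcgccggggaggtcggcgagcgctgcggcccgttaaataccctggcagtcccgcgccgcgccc
NFKB1: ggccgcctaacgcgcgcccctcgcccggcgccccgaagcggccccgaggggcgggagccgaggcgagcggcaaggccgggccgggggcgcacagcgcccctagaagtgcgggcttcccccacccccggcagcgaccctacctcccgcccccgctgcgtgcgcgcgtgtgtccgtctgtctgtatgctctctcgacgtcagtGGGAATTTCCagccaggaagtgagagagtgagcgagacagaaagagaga
TNIP1: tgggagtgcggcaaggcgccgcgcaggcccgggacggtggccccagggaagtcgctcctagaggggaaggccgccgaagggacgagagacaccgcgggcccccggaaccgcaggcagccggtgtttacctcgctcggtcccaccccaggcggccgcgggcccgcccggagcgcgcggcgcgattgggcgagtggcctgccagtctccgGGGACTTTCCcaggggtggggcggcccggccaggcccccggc
The match began 49 bases before the start site of its window in NFKB1 and 42 bases before it in TNIP1. In NFKBIZ it began 223 bases before the first start and 239 bases before the second. The letters GGGAATTTCC were the same in NFKB1 and at the first NFKBIZ start. Among genes that did not pass the MS023 test, NFKBIA held GGAAATTCCC on the gene strand, a match on the other strand, from position -81, and TNFAIP3 held GGAAAGTCCC from -67 and GGAAATCCCC from -55. NFKB2, NFKBIB, REL, TRAF3, CYLD and BCL3 held the other matches. By outcome with MS023, matches were present in 2 of the 5 higher genes with a window, 1 of the 2 lower ones, 7 of the 18 that were not called and 1 of the 3 that were not tested. TRAF1, TNIP2 and ICAM1, with the 3 largest increases, had no match in these windows.

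**Figure D2:**
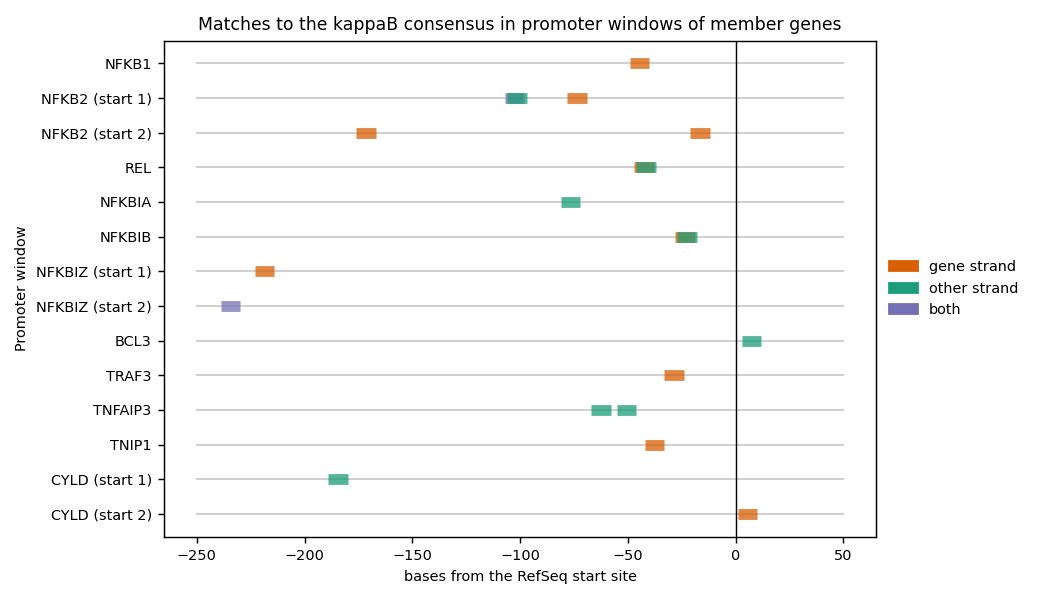
Positions of kappaB consensus matches in the promoter windows of the 11 genes that hold one, in bases from the RefSeq start site (0 on the horizontal axis), coloured by strand. Each grey line is 1 window with a match, windows of the same genes without one are left out, and the match in NFKB1 starts at -49 and that in TNIP1 at -42.

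MS023 was compared with DMSO first, which asks how inhibition of type I enzymes for 3 days changed these transcripts. A gene is called when limma's Benjamini-Hochberg adjusted p, over all genes tested, is under 0.05 and its difference in mean log2(TPM+1) exceeds 0.48 in size. Of the 29 genes tested, 9 were called, against 30.9% of the 12903 genes tested in all, a share near the background. TRAF1, TNIP2, ICAM1, TRADD, NFKBIZ and TNIP1 rose, and SOD2, IKBKB and NFKB1 fell. The 6 higher genes are 20.7% of those tested, against 11.6% of all genes, and the 3 lower ones are 10.3%, against 19.3%. The median difference was 0.14 for the 29 genes and -0.11 for all genes tested. Under median-ratio scaling the share of all called genes that were lower went from 62.4% to 50.7%, and 7 of the 29 genes were called higher and 2 lower. The 3 MS023 and 3 DMSO samples did not overlap for 18 of the 29 genes, 14 of them higher and 4 lower with MS023, against 59.5% of all genes (23.2% higher and 36.3% lower). For a single gene, groups of 3 cannot reach a p under 0.1 by exact two-sided permutation. Nothing in the labels says that replicates came from separate cultures, so p-values measure the spread between these samples, which may be technical.

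Of the 4 DNA-binding subunits tested, NFKB1 fell and was the only one called. Its log2(TPM+1) was 4.81, 4.59 and 4.75 in the DMSO samples and 4.23, 4.19 and 4.27 in the MS023 samples. Every MS023 sample lay below every DMSO sample. The difference was -0.49 (SE 0.079, limma with Benjamini-Hochberg adjustment, adjusted p = 0.00377), just past the 0.48 limit. It was -0.39 under median-ratio scaling and -0.34 under quantile normalization, and -0.44, -0.47 and -0.47 without DMSO replicate 1, DMSO replicate 3 or MS023 replicate 2, so the call was lost there while the adjusted p stayed under 0.05. RELA, the p65 subunit that carries the main transactivation domain, was 5.45, 5.35 and 5.47 in DMSO and 5.84, 5.75 and 6.02 with MS023. The groups did not overlap, and the difference of 0.45 (SE 0.088, adjusted p = 0.00797 in limma) was under the size limit. It passed that limit under median-ratio scaling (0.55), under quantile normalization (0.54) and without MS023 replicate 2 (0.50). RELB differed by 0.32 (adjusted p = 0.0187 in limma), also under the limit, and NFKB2 by 0.14 with a 95% interval of -0.03 to 0.31.

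Within each sample, the ratio of 2 genes' TPM does not depend on how samples are scaled. These ratios were chosen after the values were seen. With MS023, RELA and NFKB2 were each higher and NFKB1 was lower without overlap. That their ratios did not overlap follows from those values and is no test. The TPM of RELA over that of NFKB1 was 1.66 ± 0.074 (SD, n = 3) in DMSO and 3.24 ± 0.22 in MS023, and the lowest MS023 sample, 3.07, was above the highest DMSO sample, 1.72 (two-sided exact permutation test, p = 0.1, the smallest possible). In isgCtrl this ratio was 1.79 ± 0.19 and in PRMT1-KO 1.65 ± 0.26, with overlapping samples. NFKB2 over NFKB1 was 3.59 ± 0.20 in DMSO and 5.63 ± 0.24 in MS023, again without overlap, and 3.37 ± 0.073 in isgCtrl and 3.34 ± 0.24 in PRMT1-KO.

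Among the IkB proteins, NFKBIZ was the only one of 5 that was called. It was 2.01, 1.96 and 1.73 in DMSO and 2.53, 2.24 and 3.01 with MS023. All MS023 samples were higher, and they differed from each other by more than the DMSO samples did. The difference was 0.69 (SE 0.20, limma with Benjamini-Hochberg adjustment, adjusted p = 0.0328). The call was lost without DMSO replicate 1, 2 or 3 or MS023 replicate 1, at adjusted p of 0.0645, 0.0686, 0.0931 and 0.0698 in limma. NFKBIZ overlaps exons of NXPE3 on the same strand, whose mean was 9.20 TPM in DMSO and 17.4 TPM with MS023, and the part of shared reads in the NFKBIZ values was not tested. NFKBIA, the classical IkB-alpha and a main feedback target, was 5.68, 5.62 and 5.72 in DMSO and 5.59, 5.64 and 5.67 with MS023. These overlapped, and the 95% interval of the difference was -0.19 to 0.11. NFKBIB, NFKBIE and BCL3 had differences of 0.07, -0.24 and 0.19, with adjusted p of 0.460, 0.101 and 0.0794 in limma. SIRT2 lies across NFKBIB on the opposite strand, at 34.3 TPM in DMSO and 63.8 TPM with MS023.

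In the IKK complex, IKBKB, the catalytic subunit IKK-beta of the canonical branch, fell. It was 4.08, 4.32 and 4.27 in DMSO and 3.74, 3.48 and 3.62 with MS023. The groups did not overlap, and the difference was -0.61 (SE 0.10, limma with Benjamini-Hochberg adjustment, adjusted p = 0.00404). Under quantile normalization it was -0.46 and no longer called. CHUK, the other catalytic subunit, differed by -0.29 with overlapping samples (adjusted p = 0.122 in limma), and IKBKG, the scaffold NEMO, by 0.38 (adjusted p = 0.0742). Under quantile normalization IKBKG was called higher (0.53, adjusted p = 0.0269 in limma). IKBKG values are uncertain, since its near-copy pseudogene IKBKGP1 was listed at 10.7 TPM in both groups. The kinase genes IKBKE and MAP3K14 differed by 0.20 and 0.25, with adjusted p of 0.0302 and 0.0261 in limma and both under the size limit, without overlap between groups. MAP3K7, encoding TAK1, differed by -0.15 (adjusted p = 0.186).

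TRAF1 had the largest difference among the 29 genes. This adaptor binds TRAF2 and cIAP proteins and is induced by NF-kB. It was 1.14, 1.25 and 1.38 in DMSO and 2.48, 2.60 and 2.60 with MS023, or a mean of 1.40 ± 0.20 TPM and 4.89 ± 0.28 TPM (SD, n = 3). The MS023 samples lay far above the DMSO samples relative to the spread in either group. The difference was 1.30 (SE 0.085, limma with Benjamini-Hochberg adjustment, adjusted p = 1.73e-04), on a scale that understates changes of low genes. With a pseudocount of 0.1 it was 1.75. Of the other adaptors, TRAF2 differed by -0.27 without overlap (adjusted p = 0.0578 in limma), TRAF3 by 0.13 and TRAF6 by 0.12 with overlapping samples.

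Among the ubiquitin-editing feedback regulators, the ABIN genes TNIP1 and TNIP2 rose, while TNFAIP3 and CYLD were not called. ABIN proteins bind ubiquitin chains and bring the deubiquitinase A20, encoded by TNFAIP3, to its substrates. TNIP2, or ABIN-2, was 4.55, 4.23 and 4.62 in DMSO and 5.67, 5.64 and 5.64 with MS023. The MS023 samples were nearly equal to each other and all above DMSO, with a difference of 1.19 (SE 0.11, limma with Benjamini-Hochberg adjustment, adjusted p = 5.73e-04). TNIP1 was 5.41, 5.41 and 5.61 in DMSO and 6.16, 6.06 and 6.17 with MS023. It also did not overlap, with a difference of 0.66 (SE 0.083, adjusted p = 0.00151 in limma). TNFAIP3 was 4.72, 5.01 and 4.61 in DMSO and 4.99, 4.83 and 4.96 with MS023. These samples overlapped, and the 95% interval of the difference ran from -0.14 to 0.44. CYLD, a deubiquitinase that removes linear and K63-linked chains, differed by 0.20 (95% interval -0.04 to 0.45).

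TRADD, the adaptor of TNF receptor 1, rose among the receptor-proximal genes. It was 4.49, 4.46 and 4.63 in DMSO and 5.36, 5.21 and 5.19 with MS023. All MS023 samples were higher, by a difference in means of 0.73 (SE 0.083, limma with Benjamini-Hochberg adjustment, adjusted p = 0.00103). MYD88, IRAK1 and RIPK1, which act below Toll-like, interleukin-1 and TNF receptors, differed by 0.11, -0.01 and 0.10, with adjusted p of 0.181, 0.947 and 0.407 in limma. The sign of the IRAK1 difference turned under 5 of the alternatives.

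The 2 effector genes tested moved in opposite directions. ICAM1, an adhesion molecule that NF-kB induces, was 4.93, 4.71 and 4.92 in DMSO and 5.71, 5.66 and 5.80 with MS023. The groups did not overlap, with a difference of 0.87 (SE 0.085, limma with Benjamini-Hochberg adjustment, adjusted p = 6.12e-04). SOD2, the mitochondrial superoxide dismutase and also a known NF-kB target, was 6.50, 6.45 and 6.46 in DMSO and 5.59, 5.68 and 6.07 with MS023. It was lower in every MS023 sample, with replicate 3 nearest to DMSO, and the difference was -0.69 (SE 0.13, adjusted p = 0.00694 in limma). ACAT2 lies across SOD2 on the opposite strand and was at 93.9 TPM in DMSO and 171 TPM with MS023. The strand setting of the libraries was not given in the sources used here, and the part of ACAT2 reads in the SOD2 values was not tested.

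**Figure D3:**
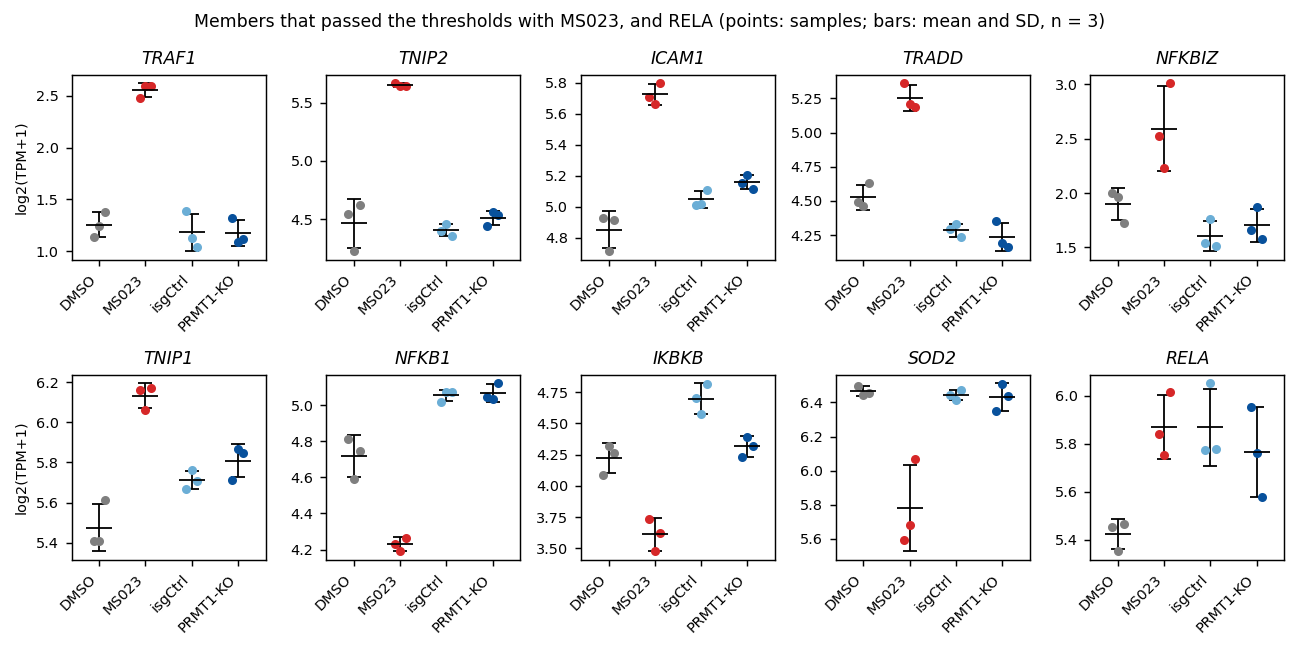
log2(TPM+1) of the 9 genes called between MS023 and DMSO, and of RELA, in all 4 groups, with points for samples and bars for the mean and SD (n = 3), each panel on its own vertical scale that does not start at 0. In the 9 called genes the MS023 samples lie apart from the DMSO samples, while isgCtrl and PRMT1-KO overlap except in ICAM1 and IKBKB.

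PRMT1-KO was compared with isgCtrl to ask what loss of PRMT1 itself changed. None of the 29 genes was called, against 0.781% of the 12285 genes tested in all (limma, 96 genes, with 0.415% higher and 0.366% lower, 46.9% of them lower and 31.6% under median-ratio scaling). At an unadjusted p under 0.05 there were 6 of the 29 and 2290 of all genes. The 29 differences ran from -0.38 to 0.33, with a median of -0.01, against -0.04 for all genes. The samples of the 2 groups did not overlap for 8 genes, 4 higher (NFKBIA, IKBKE, CYLD and ICAM1) and 4 lower (NFKBIB, IKBKB, MAP3K7 and TRAF2), or 27.6%, against 26.7% of all genes (9.11% higher and 17.6% lower).

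IKBKE, an IKK-related kinase gene, had the smallest adjusted p. It was 4.47, 4.50 and 4.48 in isgCtrl and 4.79, 4.82 and 4.84 in PRMT1-KO. Samples of a group lay close together, and the groups were well apart. The difference was 0.33 (SE 0.046, limma with Benjamini-Hochberg adjustment, adjusted p = 0.0427), under the size limit, and 1.28% of all genes had an adjusted p under 0.05. With any 1 of the 6 samples left out its adjusted p was 0.121 to 0.143. IKBKB was 4.70, 4.57 and 4.82 in isgCtrl and 4.23, 4.39 and 4.32 in PRMT1-KO. The groups did not overlap, with a difference of -0.38 (SE 0.082, adjusted p = 0.101 in limma). CYLD was 3.23, 3.35 and 3.32 in isgCtrl and 3.56, 3.57 and 3.62 in PRMT1-KO. Its difference was 0.28 (adjusted p = 0.0854), and NFKBIA differed by 0.20 (adjusted p = 0.134 in limma). TRAF2 and NFKBIB, at -0.16 and -0.17, had adjusted p of 0.182 and 0.198.

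IKBKE over IKBKB, as a ratio of TPM within a sample, was 1.29 ± 0.12 (SD, n = 3) in DMSO and 2.35 ± 0.22 in MS023. It was 0.859 ± 0.085 in isgCtrl and 1.44 ± 0.072 in PRMT1-KO. Neither pair of groups overlapped (two-sided exact permutation test, p = 0.1 for each, the smallest possible). This ratio too was chosen after the values were seen. In both comparisons IKBKE itself was higher and IKBKB lower without overlap, so the outcome for their ratio was fixed and is no test.

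For the genes called with MS023, the values in the guide-bearing cells were as follows. TRAF1 was 1.38, 1.12 and 1.04 in isgCtrl and 1.32, 1.09 and 1.12 in PRMT1-KO, a difference of -0.01 with a 95% interval of -0.29 to 0.27. TNIP2 was 4.39, 4.46 and 4.36 in isgCtrl and 4.44, 4.56 and 4.53 in PRMT1-KO, with an interval of -0.03 to 0.25. Samples of both genes overlapped between the groups. ICAM1 was 5.01, 5.02 and 5.11 against 5.15, 5.20 and 5.12, with a gap between the groups smaller than the spread within either of them (adjusted p = 0.333 in limma). TRADD was 4.29, 4.33 and 4.23 in isgCtrl and 4.35, 4.19 and 4.16 in PRMT1-KO, with overlap. NFKBIZ was 1.54, 1.76 and 1.51 in isgCtrl and 1.66, 1.88 and 1.58 in PRMT1-KO, and TNIP1 was 5.67, 5.76 and 5.71 in isgCtrl and 5.71, 5.87 and 5.85 in PRMT1-KO. These overlapped too. SOD2 was 6.44, 6.41 and 6.47 in isgCtrl and 6.35, 6.51 and 6.44 in PRMT1-KO, and NFKB1 was 5.02, 5.07 and 5.07 in isgCtrl and 5.05, 5.03 and 5.12 in PRMT1-KO. For SOD2 the 95% interval of the difference was -0.16 to 0.14 and for NFKB1 it was -0.11 to 0.14. RELA, not called with MS023, was 5.77, 6.05 and 5.78 in isgCtrl and 5.95, 5.76 and 5.58 in PRMT1-KO. Its samples overlapped, and the difference was -0.10 (adjusted p = 0.694 in limma).

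Whether the 2 effects differed was tested directly, as the MS023 minus DMSO difference less the PRMT1-KO minus isgCtrl difference, in a limma fit of all 12 samples. Of the 29 genes 8 were called (27.6%), 6 higher and 2 lower, against 24.4% of 13256 genes tested in all (9.69% higher and 14.7% lower). An adjusted p under 0.05 alone was reached by 11 of the 29 (37.9%) and by 35.6% of all genes. Of all genes called, 60.3% were lower, and 49.4% under median-ratio scaling. The MS023 effect was higher for TRAF1 by 1.31 (SE 0.15), TNIP2 by 1.08 (SE 0.13), TRADD by 0.78 (SE 0.11), ICAM1 by 0.76 (SE 0.097), TNIP1 by 0.56 (SE 0.10) and RELA by 0.55 (SE 0.16). Their Benjamini-Hochberg adjusted p were 9.98e-05, 1.57e-04, 3.47e-04, 2.43e-04, 0.00188 and 0.0216 in limma. It was lower for SOD2 by a difference of -0.68 (SE 0.15, adjusted p = 0.00587) and for NFKB1 by -0.50 (SE 0.089, adjusted p = 0.00170). For NFKBIZ the difference of effects was 0.59 (adjusted p = 0.0904) and for IKBKB -0.23 (adjusted p = 0.211), and neither was called. NFKBIZ was called under median-ratio scaling (0.66, adjusted p = 0.0488 in limma), under quantile normalization (0.71, adjusted p = 0.0382) and without MS023 replicate 2 (0.77, adjusted p = 0.0217). IKBKE differed by -0.13 with a 95% interval of -0.27 to 0.004. RELA was called in neither single comparison, at 0.45 with MS023 and -0.10 in PRMT1-KO. Its call in the difference of effects was lost without MS023 replicate 3 (0.476), isgCtrl replicate 2 (0.46) or PRMT1-KO replicate 3 (0.46). That of NFKB1 was lost under median-ratio scaling (-0.42) and quantile normalization (-0.39) and without DMSO replicate 1 (-0.45) or PRMT1-KO replicate 3 (-0.47).

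**Figure D4:**
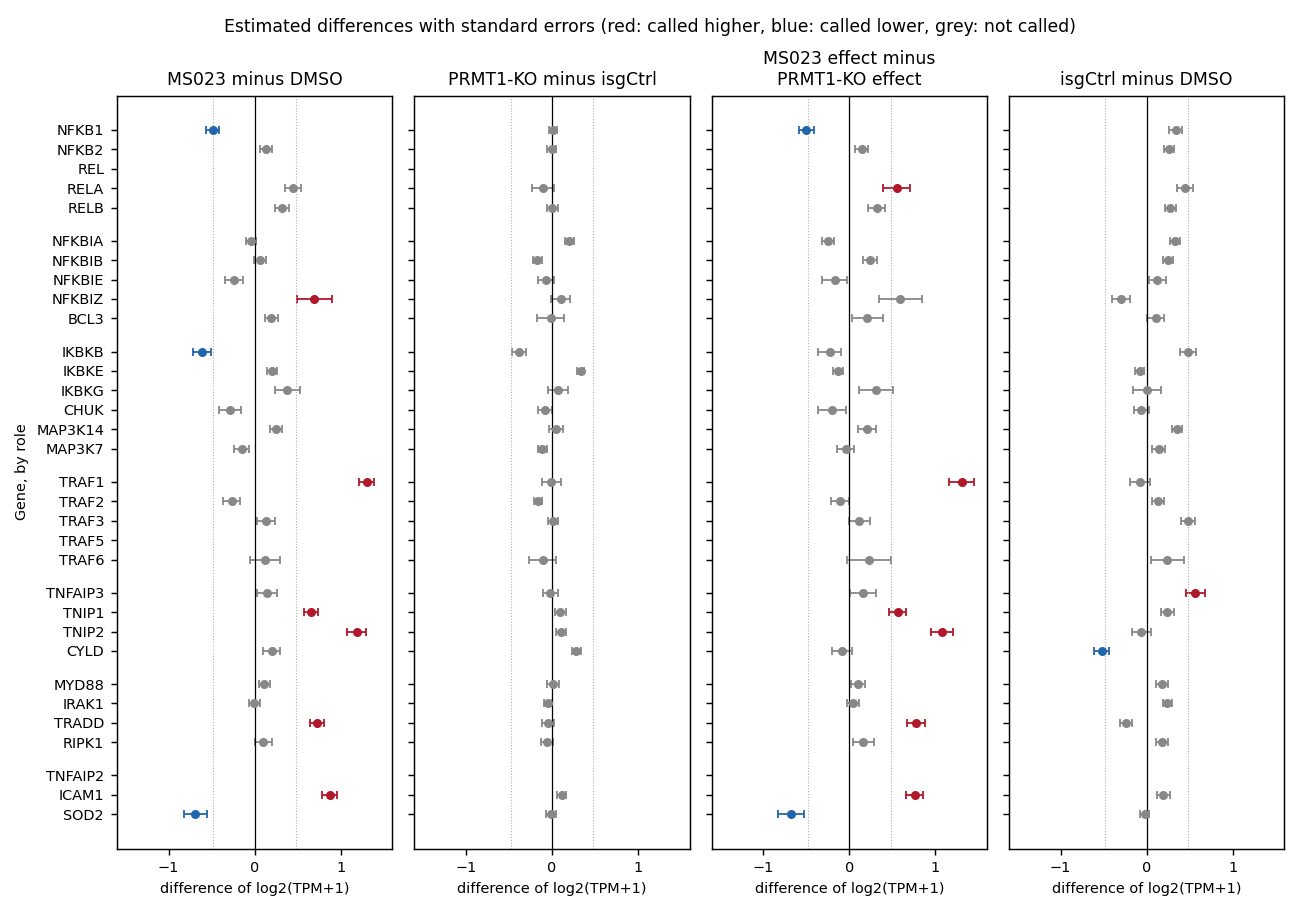
Estimated differences in log2(TPM+1) for the 29 genes tested, ordered by role, in 4 panels for the 4 comparisons, with horizontal bars for the standard error and dotted lines at the 0.48 size limit. Red and blue points are genes called higher and lower; the first panel has 6 and 3 of them and the second has none.

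The 2 control groups were compared because each comparison above rests on its own control. They differ in Cas9, vector, guide, Dox, solvent and selection together, which cannot be told apart. Selection here means the cell sorting and the puromycin given in the study's methods. This comparison shares its samples with those above. Of the 29 genes 2 were called (6.90%), 1 higher and 1 lower, against 13.9% of 12661 genes (7.23% higher and 6.70% lower, so that 48.1% of the called genes were lower, or 58.3% under median-ratio scaling). The samples did not overlap for 15 genes that were higher in isgCtrl and 3 that were lower, against 51.7% of all genes (31.8% higher and 19.9% lower). TNFAIP3 was higher in isgCtrl, at 5.31, 5.34 and 5.39 against 4.72, 5.01 and 4.61 in DMSO, a difference of 0.57 (SE 0.11, limma with Benjamini-Hochberg adjustment, adjusted p = 0.0127). CYLD was lower, at 3.23, 3.35 and 3.32 against 3.98, 3.78 and 3.70, a difference of -0.52 (SE 0.088, adjusted p = 0.00824 in limma). Neither gene overlapped between the groups, although TNFAIP3 was not called under quantile normalization (0.477) and CYLD was not called without DMSO replicate 1 (-0.44). Below the size limit, 11 further genes had an adjusted p under 0.05, for 13 of 29 in all (44.8%), against 34.5% of all genes. They included the 4 subunits NFKB1 (0.34), NFKB2 (0.26), RELA (0.44) and RELB (0.27), as well as NFKBIA (0.33), IKBKB (0.476), MAP3K14 (0.35) and TRAF3 (0.477), all higher in isgCtrl, and TRADD (-0.24). IKBKB, TRAF3 and RELA lay close to the limit and raised the number of higher genes from 1 to at most 3 when a sample was left out, as happened without DMSO replicate 2 or 3 or any of the isgCtrl replicates.

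The 92 other genes of the pathway, in 5 lists by role, place these genes in context. A gene whose mean exceeded the limit for testing in some of the compared groups only entered the test through the groups where it was high, so the counts below are over genes above it in every group compared. With MS023 and DMSO these were 62 of the 92, and 21 (33.9%) were called higher and 4 (6.45%) lower, against 10.3% and 18.9% of the 11620 such genes in all. The lists were chosen with earlier results of these data known, and their shares are a description. In PRMT1-KO and isgCtrl there were 61, of which none was called higher, against 0.361% of all such genes, and 1 lower (1.64%), against 0.327%. It was the cytokine gene IL10 (-0.54, SE 0.068, limma with Benjamini-Hochberg adjustment, adjusted p = 0.0352). Between the controls there were 58, with 5 higher (8.62%) and 5 lower (8.62%) in isgCtrl, against 7.22% and 4.6%.

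Of 17 receptors that signal to NF-kB, 5 were above the limit in both MS023 and DMSO. Of these, 2 (40%) rose and none fell, against 10.3% and 18.9% of all genes above it in both. The receptors that rose were CD40 and TNFRSF13B, which encodes the BAFF and APRIL receptor TACI, and they differed by 1.96 and 1.74. Their mean levels were 1.36 and 11.96 TPM in DMSO and 8.19 and 42.2 TPM with MS023. TLR7, which was above the limit with MS023 only, was 0.73 TPM in DMSO and 2.36 TPM with MS023. In isgCtrl and PRMT1-KO, CD40 and TLR7 were at most 0.11 TPM. Of 20 signal transducers above the limit in both groups, 4 (20%) rose and 1 (5%) fell, against the same 10.3% and 18.9%. Among these, the kinase gene MAP3K8 differed by 0.84 and TRAF4 by 0.71, and IRAK4, a kinase of the MYD88 complex, fell by 0.57. IRAK2, above the limit with MS023 only, differed by 0.53.

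Among 16 negative regulators tested with MS023, 2 (12.5%) rose and 2 (12.5%) fell. Of all genes above the limit in both groups, 10.3% rose and 18.9% fell, so the share that rose was near the background. ZFP36 and ZC3H12A, whose products bind and destabilize cytokine mRNAs, differed by 1.37 and 0.62. NKIRAS1, a Ras-like protein that binds IkB, differed by -0.64, and TOLLIP, an inhibitor of Toll-like receptor signalling, by -0.51. Of 6 genes of a myeloma NF-kB signature, PLEK (1.43), IL2RG (1.27) and CD74 (0.59) rose (50%) and MALT1 (-0.82) fell (16.7%). BIRC3 and WNT10A were not called. BIRC3 was lower by a difference of -0.35 without overlap, under the size limit (adjusted p = 0.00744 in limma). WNT10A differed by -0.05 with overlapping samples (adjusted p = 0.784 in limma). TNFAIP3, NFKB2, NFKBIE, RELB and NFKBIA belong to the same signature and to the 32 genes, and none of these 5 was called with MS023.

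Of 30 classical target genes, 15 were above the limit in both MS023 and DMSO. Of these, 10 (66.7%) were called higher and none lower, against 10.3% and 18.9% of all such genes. The median difference of the 15 was 0.96, against -0.11 for all such genes. CXCL10 was 20.7 TPM in DMSO and 191 TPM with MS023, a difference of 3.15. The chemokine genes CCL4 and CCL3 were 1.94 and 456 TPM in DMSO and 21.8 and 1885 TPM with MS023, differences of 2.96 and 2.05. A further 4 genes, IL10, CD80, PTGS2 and CXCL8, were above the limit with MS023 only, and IL10 was 0.65 TPM in DMSO and 12.5 TPM with MS023. These genes also answer to other pathways, such as interferon signalling, so the list is not specific to NF-kB. In isgCtrl and PRMT1-KO, CXCL10 was 0.79 and 0.67 TPM and CCL4 was 0.29 and 0.43 TPM. In the test of the difference of effects, 8 of the 13 classical targets above the limit in all 4 groups were called higher and none lower, against 8.22% and 15.8% of all such genes, with 1.62 for CCL3. CXCL10 and CCL4, at 3.21 and 2.80, were above it in DMSO and MS023 only, and IL10, at 3.57, in all groups but DMSO.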

How the data were processed

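RNA of 12 JJN3 samples was measured, 3 in each of 4 groups taken from the sample labels. By the study's methods and the submitters' processing notes, the authors checked reads with FastQC, trimmed them with Trimmomatic, aligned them with STAR to hg38 with the GENCODE annotation and quantified them with Salmon. The authors then deposited gene values in log2(TPM+1), and these log2 values were used as they stand. Depth cannot be read from TPM, and no count model was used.

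The 32 genes were matched by symbol. These genes, the other gene lists and the cell type markers were chosen with earlier results of these data known. Each comparison was fitted on its own 6 samples with limma 3.58.1 under R 4.3.3, with eBayes and no trend, and the difference of effects on all 12. All genes with a group mean above 1 in a compared group were tested, and p-values were adjusted by Benjamini-Hochberg over all of them. Calls needed an adjusted p below 0.05 together with a log2 difference of more than 0.48 in size, as in the study's methods. The paper reports far fewer differentially expressed genes with MS023 than the 3986 called here. For PRMT1-KO it reports about as many as the 96 called here. Why the MS023 numbers differ was not tested. Exact permutation tests were two-sided. On simulated data with 200 genes changed by a log2 of 1.5, the code recovered 89.5% in the MS023 comparison, with 6 false calls among 12903 genes, and 91.5% in the PRMT1-KO comparison, with 4 among 12285.

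All 32 genes are named, with values in every sample for those called with MS023 or in the difference of effects. From each other list, at most 4 called genes per direction and comparison are named, those with the largest difference. Some items that would be named by this rule, or as overlapping genes, are not reported here. Ratios of genes, IKBKE and the genes named for an unadjusted p were chosen after their values were seen. Promoter sequences come from RefSeq on GRCh38.p14, and overlapping genes from GENCODE on GRCh38. Promoters are printed for called genes with a match.

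Alternatives were a pseudocount of 0.1, no filter or a filter in every sample, quantile normalization, median-ratio scaling, a trend in eBayes, the replicate number as a block, all 12 samples in one fit, no fold limit, a log2 limit of 1, and each sample left out in turn. Protein sequences of the IkB genes were not analysed here.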

Additional observations from a re-analysis of the deposited data

How the results depend on the processing

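With the tests and thresholds kept and only scale, filter, normalization, variance model, block, samples in the fit or a single sample changed, TRAF1, TNIP1, TNIP2, TRADD, ICAM1 and SOD2 kept their MS023 call in 14 of 14 alternatives, IKBKB in 13, NFKB1 in 9 and NFKBIZ in 8. With MS023, quantile normalization left 1 gene of the 29 called lower, without IKBKB and NFKB1, and added RELA and IKBKG as higher. Without a limit on size 13 of the 29 (44.8%) were called with MS023, 10 higher and 3 lower. Of all genes 6300 (48.8%) were then called, so the share was near the background. At a log2 limit of 1 there were 2 higher, 0 lower and 1083 of all genes. Leaving out 1 sample gave 5 to 7 higher and 2 to 3 lower. In PRMT1-KO, all genes called numbered 48 without the filter on low values, 157 without a limit on size (1 of the 29 higher, IKBKE), 9 at a log2 limit of 1 and 2 to 21 with 1 sample left out. In the difference of effects, 1 gene was called lower under median-ratio scaling and 1 under quantile normalization, where NFKB1 was lost and NFKBIZ was added as higher, the log2 limit of 1 gave 2 higher, 0 lower and 921 of all genes, and leaving out 1 sample gave 1 to 2 lower. Between the controls, 3 genes were called higher with the pseudocount of 0.1, 0 under quantile normalization, and 11 higher, 2 lower and 4373 of all genes without a limit on size. The log2 limit of 1 gave 0 higher, 0 lower and 369 of all genes, and leaving out 1 sample gave 1 to 3 higher and 0 to 1 lower. The fewer or more calls under another limit on size follow from that limit, and for the other settings the cause was not tested.

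Differences near 0 changed sign, and none of these had an adjusted p under 0.05 in limma. With MS023 this was so under median-ratio scaling for NFKBIA (0.061) and IRAK1 (0.099), under quantile normalization for NFKBIA (0.040), MAP3K7 (0.0044) and IRAK1 (0.014), and with 1 sample left out for IRAK1 (range -0.032 to 0.023) and TRAF6 (-0.0055 to 0.27). In PRMT1-KO it was so under median-ratio scaling for TRAF1 (0.016), TNFAIP3 (0.022) and SOD2 (0.029), under quantile normalization for TRAF1 (0.017), TNFAIP3 (0.023) and SOD2 (0.033), and with 1 sample left out for NFKB1 (range -0.015 to 0.030), TRAF1 (-0.080 to 0.094), TNFAIP3 (-0.077 to 0.066) and SOD2 (-0.050 to 0.031). Under quantile normalization it was also so for CYLD in the difference of effects (0.031) and for TRAF1 between the controls (0.021), and for TNIP2 between the controls without DMSO replicate 3 (range with 1 sample left out -0.18 to 0.018).

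Replicates carry numbers in the labels, and whether these pair the samples could not be settled here. For MS023 and DMSO, deviations of same-numbered samples correlated at 0.021, 0.073 and 0.10, and those of differently numbered samples at -0.096 to 0.030. For PRMT1-KO and isgCtrl the same-numbered values were -0.14, 0.070 and -0.070, against -0.10 to 0.17. For isgCtrl and DMSO they were -0.032, -0.047 and -0.23, against -0.10 to 0.13. With the replicate number as a block, 4018 genes were called with MS023, 5 of the 29 higher and 3 lower (NFKBIZ at an adjusted p of 0.0668 in limma), 0 in PRMT1-KO (2054 at an unadjusted p under 0.05), 3215 in the difference of effects and 1584 between the controls. TPM keep no read counts, so the counting error of low genes such as TRAF1 and NFKBIZ is unknown, and 3 samples a group limit the precision of every value.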
